A study of Caenorhabditis elegans with 2 samples.

Results

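The SAEG-2 peaks on the X chromosome of Caenorhabditis elegans are the 312 regions of X among the 1307 peaks that the authors' non-conservative list retained at an irreproducible discovery rate (IDR) of 0.01 or lower. They were taken by chromosome name alone and were set against the 808 peaks of chromosomes II to V of the same list. The peaks come from chromatin immunoprecipitation followed by sequencing (ChIP-seq), with an anti-GFP antibody, on 2 biological replicates of 1 group. Each replicate was whole L4 larvae, aged 48 h, grown from bleached populations that had been starved as L1 larvae, of strain RW12230. In this strain a CRISPR insertion at the gene's own locus on chromosome III (allele st12230) joins TY1, EGFP and 3xFLAG tags to SAEG-2, so all cells that make the protein contribute and no tissue can be told from another. Chromatin was sheared by sonication to a range of 200 to 800 bp. The labels do not give the sex of the larvae. No untagged strain, second condition or control precipitation was analysed here, and enrichment over a control cannot be given. The library depths are unknown.

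SAEG-2 is a nuclear protein of the pathway of the cGMP-dependent protein kinase EGL-4, where SAEG-1 and HDA-2, a histone deacetylase, are its partners. The X chromosome differs from the autosomes in several known ways. Hermaphrodites carry a pair of X chromosomes and males a single one, and in hermaphrodites the dosage compensation complex, a relative of condensin, lowers the transcription of both. That complex is loaded at rex sites (recruitment elements on X), which hold copies of a short sequence, the MEX motif (motif enriched on X), and then spreads along the chromosome. X also carries fewer protein-coding genes per length than an autosome, lacks the sharp division into a centre and arms, and holds a large share of the tRNA genes, which RNA polymerase III transcribes from an A box and a B box inside the gene.

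Several of the strongest X peaks of the thresholded list had near their summits a sequence that was rare at the SAEG-2 peaks of II to V. The core of the MEX motif, GCGCAGGG on either strand, lay within 50 bp of the summit in 8 of the 312 X peaks (2.56%, 95% Wilson interval 1.30 to 4.98) and in 1 of the 808 peaks of II to V (0.124%, 0.0219 to 0.698). The difference was 2.44 percentage points (1.06 to 4.86; Fisher's exact test, two-sided, p = 0.000231, adjusted over 12 motifs p = 0.00139). The 12 motifs were chosen with earlier results of these data known. The p-values for motifs here therefore describe these peaks and do not account for that choice. Over all windows of the same length along the chromosomes the core was in 0.0388% of those of X and 0.0284% of those of II to V. Whether any of these peaks lies at a known rex site was not checked, because no list of rex sites was at hand. The bases around the summits of the 8 X peaks, in which the core was searched, are shown here on the forward strand of WBcel235 from the RefSeq sequence, with each copy of the core or its reverse complement in capitals, in the order of their signal value.
chrX:11094118-11094218, W02H3.3: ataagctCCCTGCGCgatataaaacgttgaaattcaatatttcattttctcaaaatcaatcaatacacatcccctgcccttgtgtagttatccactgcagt
chrX:4209231-4209331, F20B6.9: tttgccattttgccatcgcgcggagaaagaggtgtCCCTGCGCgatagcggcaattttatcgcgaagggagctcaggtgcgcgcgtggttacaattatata
chrX:6296493-6296593, cest-16: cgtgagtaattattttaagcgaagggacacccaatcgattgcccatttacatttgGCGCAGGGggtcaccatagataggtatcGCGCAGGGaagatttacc
chrX:14525858-14525958, nspc-17: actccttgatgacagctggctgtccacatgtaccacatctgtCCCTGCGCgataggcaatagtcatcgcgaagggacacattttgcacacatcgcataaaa
chrX:806629-806729, gtr-1: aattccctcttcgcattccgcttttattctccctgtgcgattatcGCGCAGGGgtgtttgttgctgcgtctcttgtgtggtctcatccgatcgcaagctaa
chrX:5429536-5429636, C41A3.2: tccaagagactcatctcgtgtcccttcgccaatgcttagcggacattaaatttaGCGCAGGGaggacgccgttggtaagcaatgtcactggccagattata
chrX:1344997-1345097, ins-39: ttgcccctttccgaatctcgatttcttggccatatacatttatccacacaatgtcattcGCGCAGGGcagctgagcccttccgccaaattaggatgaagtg
chrX:2364858-2364958, T24D8.6: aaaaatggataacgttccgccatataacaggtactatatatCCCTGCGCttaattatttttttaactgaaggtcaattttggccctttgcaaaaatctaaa

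These 8 peaks ranked 1, 2, 4, 5, 16, 26, 43 and 92 among the X peaks by the authors' signal value. Thus 4 of the 5 strongest X peaks of the thresholded list had the core within 50 bp of the summit. At the strongest the core was not wholly inside the peak, since it began at 11094125 and the peak at 11094131. The ranked list of the whole series holds 3 X peaks at an IDR of 0.01 or lower that the thresholded list lacks and that are stronger than all of these. Their signal values were 2682, 649 and 449, and none of the 3 had the core within 50 bp of the summit. With the peaks missing in this way put back, an alternative chosen after the values were seen, 2 of the 5 strongest X peaks and 5 of the 20 strongest had it there. The signal value has no stated unit and ranks peaks only within its own list. The strongest X peak, at 11094131 to 11094248, lay 4018 bp downstream of the nearest 5′ end, that of W02H3.3, and had a signal value of 389 in the pooled list, 178 in replicate 1 and 196 in replicate 2. The second, at 4209177 to 4209358 and 1796 bp upstream of F20B6.9, had 385, 133 and 243. The fourth lay in an intron of mom-1, which encodes the worm's Porcupine, an enzyme of Wnt secretion, 3399 bp upstream of the carboxylesterase gene cest-16. It held 2 copies of the core and had values of 356, 162 and 189. The fifth of the thresholded list lay 727 bp upstream of nspc-17, a gene of a nematode-specific peptide family, with 343, 157 and 176. In all 4 the replicates' own lists both held the peak.

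The other 4 were weaker and more varied in place. The peak 3901 bp downstream of the 5′ end of gtr-1 had a value of 233, with 81.9 and 138 in replicates 1 and 2. The peak in a coding exon of pks-1 had 188, 88.5 and 96.5. It lay 15236 bp upstream of the nearest 5′ end, that of C41A3.2, the largest such distance on X. The peak 626 bp upstream of the insulin-like peptide gene ins-39 had 154, 69.8 and 80.1. The weakest, 1082 bp downstream of the 5′ end of T24D8.6, had 116, and it was in the thresholded list of replicate 1 (53.8) but not in that of replicate 2, where the ranked list gave it 64.7. Of the 8, 7 were therefore in both replicates' thresholded lists, and 6 had the centre of a core within 11 bp of the summit. The lists of the replicates alone gave the same direction: 9.90% of X peaks against 0.352% of the others in replicate 1 and 5.00% against 0.629% in replicate 2 (Fisher's exact test, two-sided, p = 9.40e-06 and 0.00445). The single match on II to V was a peak of chromosome III 842 bp upstream of cox-6A, with a signal value of 124.

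**Figure D1:**
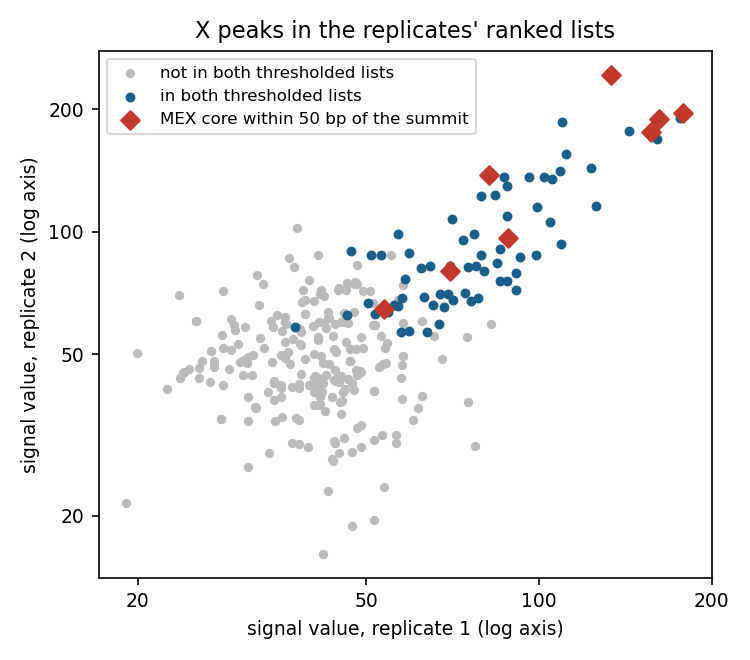
Signal values of the 306 X peaks found in the ranked lists of both replicates, replicate 1 against replicate 2, both axes on a log scale, with 1 point a peak. Blue points are the peaks in both thresholded lists and red diamonds the 8 peaks with the MEX core within 50 bp of the summit; 4 of the diamonds are among the highest values of both replicates and the lowest, near T24D8.6, lies beside peaks that are not in both lists.

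The plot of both replicates' signal values shows the core at the strong end of the X peaks. Among the 20 strongest X peaks of the thresholded list 5 had the exact core within 50 bp of the summit, against 0 of the 20 strongest peaks of II to V. The 78 strongest X peaks had 7 of the 8 matches. With 1 mismatch allowed the core was in 33 X peaks (10.6%) and 62 peaks of II to V (7.67%), which did not pass the test (Fisher's exact test, two-sided, p = 0.121). It was then in 12 of the 20 strongest X peaks and 3 of the 20 strongest of II to V, a pair of counts given without a test because the looser match was tried after the values were seen.

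The bases next to the core were also looked at after the values were seen, and the following counts are descriptions. X holds 81 copies of the core in all and II to V hold 202. Of the copies on X, 17 of 81 lay inside a SAEG-2 peak, and of those on II to V 5 of 202 did. Read on the strand of the core, TATC came directly before it in 5 of the 9 copies shown above, in 9 of the 81 copies on X and in 0 of the 202 on II to V. Of these 9 copies on X, 6 lay inside a thresholded peak. A seventh overlapped the edge of the strongest X peak, near W02H3.3, an eighth lay 138 bp from the edge of the peak near Y41G9A.17, which holds another of the 9, and the last lay 12902 bp from any peak, with col-185 as the nearest gene. A version with A in place of the second C of the core, GCGAAGGG, was within 50 bp of the summit in 10 X peaks (3.21%) and 1 peak of II to V (0.124%). Along the whole chromosomes this version has 140 copies on X and 405 on II to V. It stood beside the exact core at the peaks near F20B6.9, cest-16, nspc-17 and C41A3.2, and, among the 10 strongest X peaks, without the exact core within 50 bp of the summit at those near ZK899.6 and Y41G9A.17, which ranked 9 and 10 on X with signal values of 270 and 269. The sequences of these peaks are shown with the version in capitals, followed by that of the third strongest X peak, near K02D3.1 with a signal value of 368, in which no match with at most 1 mismatch was found.
chrX:9465818-9465918, ZK899.6: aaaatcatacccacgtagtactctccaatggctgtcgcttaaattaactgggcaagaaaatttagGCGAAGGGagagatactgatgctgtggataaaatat
chrX:2997019-2997119, Y41G9A.17: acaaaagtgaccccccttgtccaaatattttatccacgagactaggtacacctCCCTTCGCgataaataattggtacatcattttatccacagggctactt
chrX:13700800-13700900, K02D3.1: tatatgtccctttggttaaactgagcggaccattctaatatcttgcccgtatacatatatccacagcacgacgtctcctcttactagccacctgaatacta

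One of the copies after TATC lay in a peak upstream of xol-1, the switch gene of sex determination, whose product keeps the dosage compensation genes off in males. This peak, at 8036356 to 8036659, had its summit 4805 bp upstream of the nearest 5′ end of xol-1 and a signal value of 169, with 91.0 in replicate 1 and 71.8 in replicate 2. The core lay more than 50 bp from the summit, so the peak is not among the 8. It was chosen for this description after its values were seen, and the bases that hold its copies of the core, which face in opposite directions, are shown with both in capitals.
chrX:8036356-8036456, xol-1: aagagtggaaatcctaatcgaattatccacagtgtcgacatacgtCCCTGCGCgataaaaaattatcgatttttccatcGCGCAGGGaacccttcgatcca
A further peak followed, with its summit at 8036710, in the tRNA gene C18A11.t2, and a signal value of 97.1. The 2 summits were 202 bp apart. Replicate 2 gave both peaks the same value, 71.8, so that value cannot be assigned to either one alone. The gene for SDC-2, the protein that brings the dosage compensation complex to X, was the 1 of 6 X members of the sex determination and dosage compensation list with a summit in its promoter window, against 0 of 11 on II to V and 4.25% of all coding genes of X. That summit lay 428 bp upstream of sdc-2, with a signal value of 108 and ranked-list values of 53.9 and 51.9 in replicates 1 and 2, and neither thresholded replicate list held it. The peaks nearest to sdc-1, sex-1, fox-1 and ceh-39, other X genes of this pathway, were 4421, 11601, 16226 and 2696 bp from their 5′ ends.

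Per length, X held more SAEG-2 peaks than any of the 4 autosomes compared. It had 17.6 peaks per Mb, followed by chromosome III with 15.4, II with 13.8, V with 10.1 and IV with 9.95. X made up 20.8% of the length of X and II to V together and held 27.9% of their peaks (95% Wilson interval 25.3 to 30.6), a ratio of densities of 1.47 (95% interval 1.29 to 1.68; exact binomial test, two-sided, adjusted over 11 comparisons p = 7.29e-08). X was also the densest in each replicate's own list, with 5.70 peaks per Mb in replicate 1, where III came next with 5.30, and 7.90 in replicate 2, where III had 5.95. Among the ranked candidates before the threshold, X held 21.5%, close to its share of the length, and 1.504% of its 20741 candidates (1.35 to 1.68) were in the thresholded list, against 1.07% of the 75558 of II to V (0.998 to 1.15) and 1.16% over both. Away from tRNA genes X had 13.4 peaks per Mb and came second, below the 14.1 of III and above II with 12.8. The tests treat peaks as independent, which neighbouring peaks are not.

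**Figure D2:**
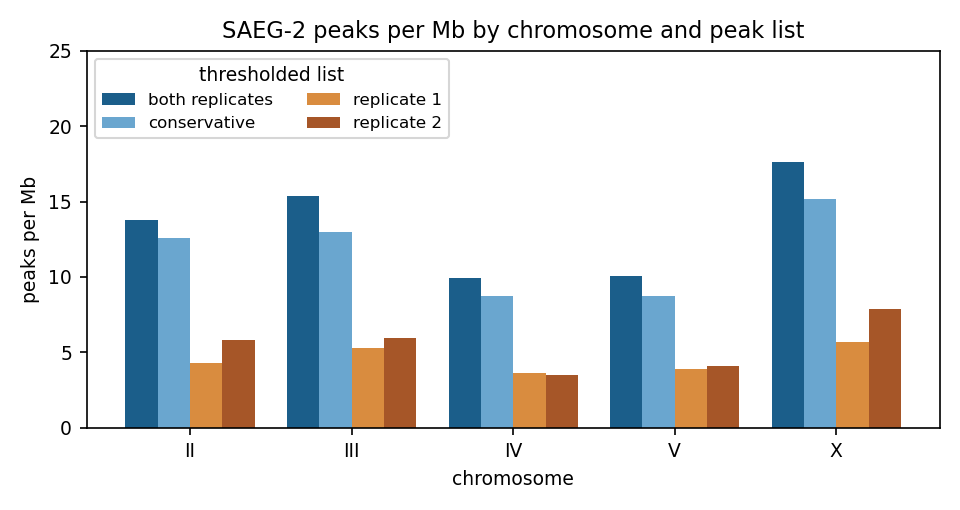
SAEG-2 peaks per Mb (vertical axis) on chromosomes II to V and X (horizontal axis), 1 bar for each thresholded peak list, in the order both replicates, conservative, replicate 1 and replicate 2. X has the highest bar of each list, 17.6 peaks per Mb in the list of both replicates.

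As the plot of peaks per Mb shows, X stood above the autosomes in all 4 lists, by little over III in replicate 1. The excess on X was then measured at coding promoters and away from them. A promoter window here starts 1000 bp before a coding gene's annotated 5′ end and stops 500 bp after it. Per base of such windows the ratio of X to II to V was 1.32 (1.06 to 1.64; exact binomial test, two-sided, adjusted p = 0.0200), and per base outside them it was 1.69 (1.42 to 2.00; adjusted p = 2.01e-08). The first ratio lost its call in the conservative list (1.22, exact binomial test, adjusted p = 0.123) and in either replicate's own list (1.12 and 1.38), while the second kept it in all alternatives run. Without the peaks at tRNA genes the ratio for all peaks was 1.21 (exact binomial test, adjusted p = 0.0240), and those at and outside the windows were 1.22 (adjusted p = 0.145) and 1.31 (adjusted p = 0.0228). The difference between the ratios at and outside windows was not tested.

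X peaks lay farther from the 5′ ends of coding genes than peaks of II to V. Only 108 of 312 X summits were in a promoter window (34.6%, 29.6 to 40.1) against 390 of 808 (48.3%, 44.8 to 51.7), a difference of -13.7 percentage points (-19.8 to -7.22; Fisher's exact test, two-sided, adjusted over 11 comparisons p = 9.09e-05). The shares of the autosomes were 46.0% on II, 45.8% on III, 47.1% on IV and 54.03% on V, all above that of X. In turn 129 X summits (41.3%, 36.0 to 46.9) were over 2000 bp from any coding 5′ end, against 198 of II to V (24.5%, 21.7 to 27.6), a difference of 16.8 points (10.7 to 23.1; Fisher's exact test, adjusted p = 1.40e-07). By chromosome that share ran from 18.5% on II over 22.7% on V and 27.01% on IV to 30.2% on III. Both differences held in all alternatives run. The median distance to the nearest coding 5′ end was 1557.5 bp on X and 814 bp on II to V, and 36 X summits (11.5%) were over 5000 bp away.

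The chromosomes differ in the same direction in their genes. X has 154 protein-coding genes per Mb and II to V have 213, promoter windows cover 26.8% and 33.6% of their bases, and 40.7% and 32.9% of bases are over 2000 bp from a coding 5′ end. The X share of distal summits, 41.3%, was thus near the X share of distal bases, while on II to V the 24.5% of summits stood below the 32.9% of bases. Whether the spacing of genes accounts for the difference between the chromosomes was not tested. Of the 10 strongest X peaks 6 were distal and 3 were in a window, and of the 20 strongest 8 and 7.

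**Figure D3:**
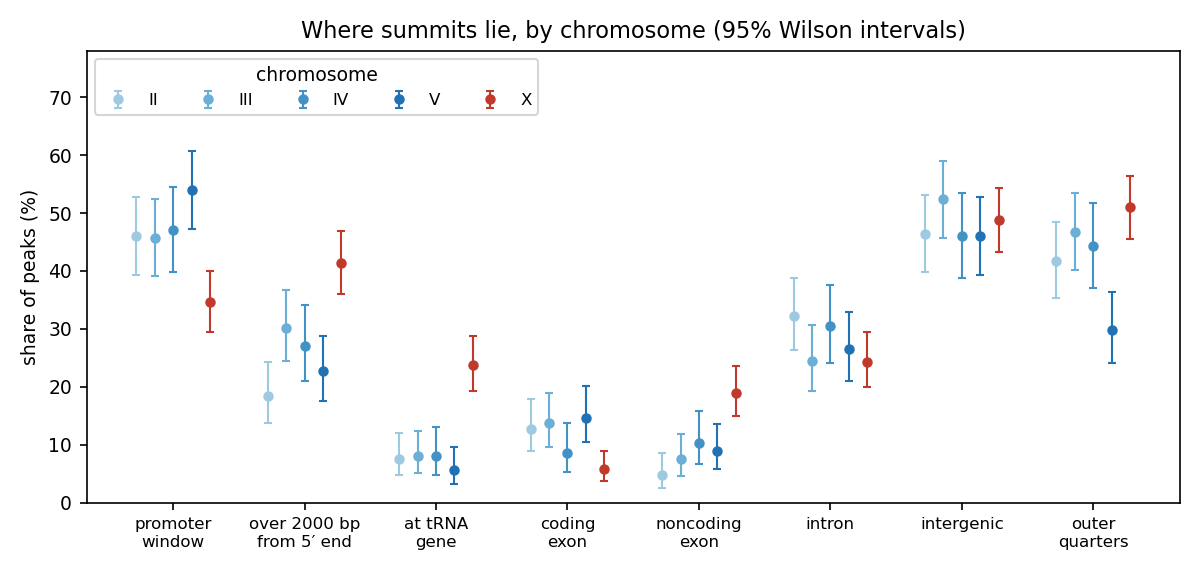
Share of peaks in percent (vertical axis) with the summit in each kind of place (horizontal axis), for chromosomes II to V (blue) and X (red), with 95% Wilson intervals as bars. X is lowest for promoter windows (34.6%) and coding exons (5.77%) and highest for distal summits (41.3%), tRNA genes (23.7%) and noncoding exons (18.9%).

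The plot of shares by chromosome sets these measures side by side, with the wide gaps of distal summits and tRNA genes. A summit lay within 100 bp of a tRNA gene in 74 X peaks (23.7%, 19.3 to 28.7) and in 59 peaks of II to V (7.30%, 5.70 to 9.31), a difference of 16.4 points (11.6 to 21.7; Fisher's exact test, two-sided, adjusted over 11 comparisons p = 9.20e-12), which held in all alternatives run. The shares of the autosomes ranged from 5.69% on V to 8.05% on IV. In the replicates' own lists the X shares were 24.8% and 26.4%, against 7.04% and 4.72%. X has 276 tRNA genes, 15.6 per Mb, and II to V together have 270, 4.001 per Mb. Per gene the marking was closer, since 78 of the X tRNA genes (28.3%) and 64 of the others (23.7%) had a summit within 100 bp, a difference that was not tested. By autosome this share was 31.6% on II, above that of X, 28.1% on III, 21.1% on IV and 16.7% on V. Small RNA genes of other kinds were counted in the same way. A summit lay within 100 bp of a snoRNA gene in 2 of 312 X peaks (0.641%, 0.176 to 2.31) and 42 of 808 peaks of II to V (5.20%, 3.87 to 6.95). It lay that close to a snRNA gene in 0 X peaks and 15 of II to V (1.86%), and to a miRNA gene in 0 X peaks and 1 of II to V. A count of 0 of 312 allows a share of up to 0.962%, taken as 3 counts, and its 95% Wilson interval reaches 1.22%. X has 33 snoRNA genes and 3 snRNA genes, and II to V have 239 and 110. These differences were not tested.

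The strongest X peaks at tRNA genes were those at R11.t1, with a signal value of 246 and replicate values of 126 and 115.4, and at M02F4.t1 and M02F4.t2, with 236, 105 and 135. The peak at F15G9.t1 and F15G9.t2, inside an intron of him-4, the gene for the matrix protein hemicentin, had 208, 79.1 and 123. The peaks at R01H5.t1 and C42D8.t1 had 196 and 176. All 5 were in the lists of both replicates. The 7 bases GGTTCGA, the core of the B box, were within 50 bp of the summit in 36 X peaks (11.5%) and 34 peaks of II to V (4.21%; Fisher's exact test, two-sided, adjusted over 12 motifs p = 0.000276). In the list of replicate 1 alone the difference, 5.96 points, did not pass (Fisher's exact test, adjusted p = 0.227). Of the 36, 35 were at tRNA genes, and without the peaks at tRNA genes the shares were 0.420% and 1.87%. The 2 strongest tRNA peaks of X that hold it are shown with it in capitals.
chrX:9743621-9743721, F15G9.t1 and F15G9.t2: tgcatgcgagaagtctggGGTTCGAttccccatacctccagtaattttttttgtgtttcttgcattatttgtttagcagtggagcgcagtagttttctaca
chrX:5085599-5085699, C42D8.t1: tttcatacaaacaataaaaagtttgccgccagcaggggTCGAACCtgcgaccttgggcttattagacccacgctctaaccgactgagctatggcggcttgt
None of the 8 peaks with the MEX core was at a tRNA gene. The X peaks at tRNA genes had a median signal value of 100.9, against 91.9 for the other X peaks, and 20 of the 74 (27.03%) were in both replicates' lists. On II to V 5 of 59 (8.47%) were, with a median of 91.4.

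By location class, noncoding exons held 59 X summits (18.9%, 15.0 to 23.6) and 63 summits of II to V (7.80%, 6.14 to 9.85; Fisher's exact test, two-sided, adjusted over 6 classes p = 1.97e-06). Noncoding exons make up 2.44% of the bases of X and 3.11% of those of II to V. Without the peaks at tRNA genes the difference fell from 11.1 to 3.39 points and did not pass (Fisher's exact test, adjusted p = 0.165). Coding exons held 18 X summits (5.77%, 3.68 to 8.93) and 102 on II to V (12.6%, 10.5 to 15.1; Fisher's exact test, adjusted p = 0.00228), and make up 19.97% and 25.5% of bases. That call was lost in both replicates' own lists, in the peaks above the median signal value and without the peaks at tRNA genes. Taken 1 autosome at a time, the differences of both exon classes passed against II, III and V. Against IV they were 8.57 points for noncoding and -2.85 points for coding exons and did not pass (Fisher's exact test, adjusted p = 0.0824 and 0.439). Introns held 24.4% and 28.3% of summits and the space between genes 48.7% and 47.8%, and neither difference passed (differences -3.98 points, -9.45 to 1.90, and 0.946 points, -5.54 to 7.45). The UTR classes held 4 and 3 X summits.

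Summits lay in the outer parts of X about as often as an even spread gives, and in those of II to V less often. The 2 end stretches of X, each 25% of its length, together held 159 of 312 X summits (50.96%, 45.4 to 56.5), against 327 of 808 in the same parts of II to V (40.5%, 37.1 to 43.9), a difference of 10.5 points (3.99 to 16.9; Fisher's exact test, two-sided, adjusted over 11 comparisons p = 0.00290). The autosomes differed widely among themselves, with 29.9% on V, 41.7% on II, 44.3% on IV and 46.7% on III. Taken 1 autosome at a time, the difference was 21.1 points against V and passed (Fisher's exact test, adjusted p = 3.65e-06). Against II, IV and III it was 9.26, 6.71 and 4.26 points and did not pass (Fisher's exact test, adjusted p = 0.0634, 0.291 and 0.457). Without chromosome V, an alternative chosen after the values were seen, the difference was 6.74 points and did not pass (Fisher's exact test, adjusted p = 0.0922), and neither replicate's own list gave a call. With X divided into 10 equal parts from left to right, the share of its peaks ran from 7.37% in part 6 to 13.8% in part 8. On II to V it ran from 6.06% in part 9 to 14.98% in part 7.

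**Figure D4:**
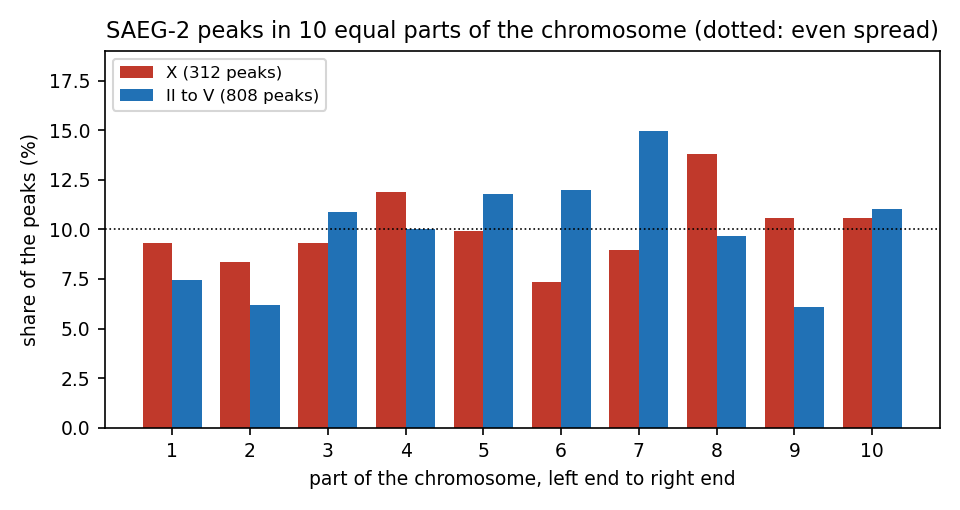
Share of the peaks in percent (vertical axis) in 10 equal parts of the chromosome from the left end to the right end (horizontal axis), for the 312 X peaks (red) and the 808 peaks of II to V as 1 set (blue); the dotted line is an even spread. The X shares stay between 7.37% and 13.8%, those of II to V between 6.06% and 14.98%.

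In the plot of shares along the chromosome, each of the 10 parts of X held peaks. The first X summit was at 59341 and the last, 144 bp upstream of H18N23.2 and with a signal value of 127, was 77927 bp from the right end. The median span between neighbouring X summits was 30424 bp and the longest 459383 bp, from 16961609 to 17420992. The densest 100000 bp of X held 11 peaks, from 4142327 to 4222989, and the peak near F20B6.9 is one of them. Another summit within 5000 bp was found for 37.5% of X peaks and 36.8% of those of II to V, a difference of 0.743 points (-5.45 to 7.13). Its direction turned in 5 of the 7 alternatives run, and in the list of replicate 1 the shares were 12.9% and 23.9% (-11.1 points; Fisher's exact test, two-sided, adjusted p = 0.0449). The gene mdl-1, which encodes a Mad-like transcriptional repressor, was the nearest to 7 peaks, with signal values from 59.3 to 181. The bodies of lin-14, a heterochronic gene of larval timing, unk-1, H18N23.2 and abts-4, an anion transporter gene, held 3 each, the most on X. The 3 in abts-4 are among the 7 nearest to mdl-1, at 5851 to 7962 bp from its 5′ end.

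Some closely spaced peaks share a region. A second summit lay within 250 bp for 30 X peaks (9.62%) and 82 of II to V (10.1%), and of the 16 X peaks with a signal value under 50, 14 were such neighbours. The lowest X value was 2.23. The median signal value was 94.2 on X (quartiles 78.8 and 122) and 91.3 on II to V (76.6 and 118). The strongest 25% of the peaks of X and II to V by signal value included 26.9% of X peaks and 24.3% of those of II to V, a difference of 2.67 points (-2.88 to 8.57).

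The share of X peaks found in the thresholded lists of both replicates fell steeply with signal value. In all 72 X peaks (23.1%, 18.7 to 28.1) overlapped a thresholded peak of both replicates, 26 one of replicate 1 alone, 62 one of replicate 2 alone and 152 (48.7%) one of neither. On II to V the share in both was 22.0% (difference 1.05 points, -4.21 to 6.73). With the X peaks ordered by signal value in 4 sets of 78, the strongest set had 62 peaks in both lists, the next 9, the next 1 and the weakest 0. Nearly all X peaks, 306, were still among the ranked candidates of both replicates. Statements about a single X peak below a signal value of about 123, the lowest of the strongest set, therefore rest mostly on the pooled list.

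Protein-coding genes with a summit in their promoter window numbered 116 of 2731 on X (4.25%) and 472 of 14364 on II to V (3.29%). At hsp-3, the gene for an HSP70 of the endoplasmic reticulum, the summit lay 51 bp upstream with a signal value of 248 and replicate values of 102 and 136. At epn-1, the gene of the endocytic adaptor epsin, it lay 492 bp away with 231, 86.8 and 137, and at ftt-2, which encodes a 14-3-3 protein, 532 bp away with 217, 99.2 and 115.01. The peak 294 bp upstream of serp-1.1 had 326, 144 and 177, and that 287 bp upstream of puf-9, a Pumilio-family RNA-binding protein gene, had 295, 110 and 186. All 5 were in the lists of both replicates. Beyond the windows, the sixth strongest X peak lay 5003 bp upstream of bcat-1, which encodes a branched-chain amino acid aminotransferase, with 331, 161 and 169.

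The 16 gene lists were small on X, and their counts, given without a test, stand beside the 4.25% of all X coding genes and the 3.29% of those of II to V. Nuclear hormone receptors had 3 of 23 (nhr-35 with 118, nhr-48 with 93.0 and nhr-1 with 91.5), against 7 of 223 on II to V. Of the 3, nhr-35 was in both replicates' lists. Neuropeptide genes had 2 of 34, ins-39 and nlp-57 (154 and 85.3), against 0 of 87 on II to V. The unc genes had 2 of 16, the calcium channel gene unc-2 (75.2) and the SUN-domain gene unc-84 (72.4), against 3 of 55. The fibroblast growth factor gene egl-17 was the 1 of 5 egl genes, with 95.2 and a summit at a tRNA gene, against 1 of 21 on II to V. Of the stress and translation lists, 2 of 5 heat shock and J-domain genes (hsp-3 and dnj-14, the latter with 129) and 1 of 2 ribosomal protein genes (rpl-11.2 with 148) had one, against 10 of 35 and 15 of 53 on II to V. The X members of the remaining lists had none. At the share of all X coding genes, lists of this size would hold about 1 such gene or fewer. Beside 0 of 27 collagens, 0 of 24 ligand-gated channels, 0 of 18 homeodomain genes and 0 of 13 potassium channels on X, the counts on II to V were 2 of 108, 0 of 49, 2 of 37 and 3 of 34. The 6 helix-loop-helix genes, 6 lin genes and 2 let genes of X stood beside 1 of 17, 5 of 30 and 1 of 19, and the 6 body wall muscle genes and 5 yolk genes beside 0 of 12 and 0 of 1.

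The bases at X summits were rich in G and C, as those of the autosomes were. The median G+C share within 50 bp of X summits was 48.5% (quartiles 41.6 and 53.5), against 35.3% (30.4 and 40.2) in the flanks 200 to 250 bp away and 35.2% for the whole of X. On II to V the medians were 47.5% and 36.3%, with 35.4% for the chromosomes. The centre was above its flanks in 269 of 312 X peaks (86.2%, 82.0 to 89.6) and in 663 of 808 others (82.1%, 79.3 to 84.5), a difference of 4.16 points (-0.779 to 8.55) that did not pass the test (Fisher's exact test, two-sided, adjusted p = 0.149). In the conservative list it was 8.77 points and passed (Fisher's exact test, adjusted p = 0.00127).

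**Figure D5:**
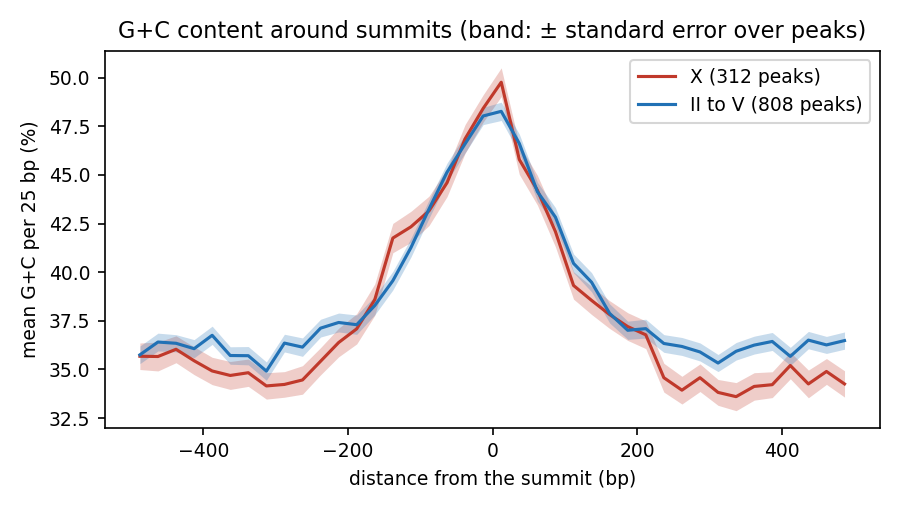
Mean G+C share per 25 bp in percent (vertical axis, not starting at 0) against the distance from the summit in bp (horizontal axis), for the 312 X peaks (red) and 808 peaks of II to V (blue), with bands of 1 standard error over peaks. Both rise to a maximum at the summit, 49.8% on X and 48.3% on II to V, and fall to about the level of the chromosome beyond 250 bp.

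In the profile of G+C around summits, the curves of X and II to V run together within 100 bp of the summit. Among all words of 6 bases, each word counted with its reverse complement and compared between X peaks and those of II to V, 1 passed the adjustment over all words (0.0481%). It was ACCACT, in 54 X peaks (17.3%) and 64 of II to V (7.92%; Fisher's exact test, two-sided, adjusted p = 0.0234), and 36 of the 54 were at tRNA genes. Away from tRNA genes it was in 7.56% and 5.74%. No word passed without the tRNA peaks, in the list of replicate 2 alone, in the peaks above the median signal value or with the missing peaks put back. In flanks of the same length 0 words passed by Fisher's exact test (112 had an unadjusted p under 0.05, against 187 at the summits). Of the 12 motifs, the MEX core and the B box core were the 2 called. GATAA, the core bound by GATA factors, was in 78 of 312 X peaks and 18.6% of the others (Fisher's exact test, adjusted p = 0.0812), beside 21.7% and 21.1% of all windows. The differences of the others did not pass: GAGAGA, the E-box CACGTG, the cAMP response element core TGACGT, the forkhead site GTAAACA, the E2F site TTCCCGC, the GC box GGGCGG, the T run TTTTTTTT, the promoter element CTGCGTC and the heat shock element TTCTAGAA. Their intervals ran at the widest from -6.98 to 2.64 points, for GAGAGA.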

How the data were processed

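The data are peak lists of the whole series and of each replicate, on ce11 (WBcel235), per the file headers and file names. Per the deposited file list, the lists of the whole series are pooled, made from both replicates' filtered alignments, and each replicate's from its own alignments. No source used here names the aligner, the peak caller or their versions. The score of a peak, deposited by the authors, is capped at 1000 and was not used in a test. The signal value, deposited by the authors without a stated scale, served to rank and describe peaks within a list. The −log10 IDR values of the deposited ranked lists are capped at 5. In the ranked lists of the whole series, 8 columns for each compared peak set were not used. Read totals are unknown, and intervals cover counting error only. The p-values concern peaks of these 2 samples, not animals.

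Summits were placed with Ensembl release 115 genes. Each summit got 1 location class, with coding exons taking precedence, then both UTRs, introns, noncoding exons and, last, intergenic space. tRNA gene names were taken from RefSeq by matching coordinates. X was compared with II to V by exact binomial tests for densities and Fisher's exact tests for shares, two-sided, with Benjamini-Hochberg adjustment over 11 single comparisons, 6 classes, 12 motifs or all words of 6 bases at a threshold of 0.05, in Python 3.11.15 with SciPy 1.17.1. Shares have 95% Wilson intervals and differences Newcombe intervals. The word comparison was tested on simulated data. Gene lists were counted without a test. Named were the 20 strongest X peaks (those the text turns on), the 10 strongest distal ones and the 5 strongest at tRNA genes where described, up to 3 members of each gene list and the peaks nearest the ends. The X peaks, the gene lists and the motifs were chosen with earlier results of these data known. Chromosome I was not part of the comparison.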

Additional observations from a re-analysis of the deposited data

Results flagged for a closer look

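The ranked list of the whole series, outside the main measurement, held 13 X peaks at an IDR of 0.01 or lower that the thresholded list lacks, of 64 in the whole series and 39 on II to V. The strongest, at 15810938 to 15811173, 6937 bp upstream of Y7A5A.7, had a signal value of 2682 with 1294 and 1518 in replicates 1 and 2, above the 389 of the strongest thresholded X peak. Another lay close by, at 15808127 to 15808257, with 449. The second strongest, at 293354 to 293482, had 649. Of the 13, 0 held the MEX core within 50 bp of the summit. The sources used here do not give why these peaks are missing.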

How the results depend on the processing

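Under the alternatives run, the density of X, the density outside promoter windows, the promoter, distal and tRNA shares and the exact MEX core kept their direction and call. No paired analysis was possible because there is 1 group. The other values follow, as ratios or differences in percentage points. The cause of a change was not tested, and in several alternatives fewer peaks enter. The promoter-window density ratio was 1.22 in the conservative list, 1.12 to 1.38 with 1 replicate left out, 1.33 in the peaks above the median signal value, 1.22 without peaks at tRNA genes and 1.22 with the narrow window, and none passed. The outer-quarter difference did not pass with 1 replicate left out (9.69 to 12.3), in the peaks above the median (9.68), with wider outer regions (6.05) or without chromosome V (6.74).

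Differences that had not passed and changed sign were the share in both replicates (-1.65 in the peaks above the median, -1.25 without tRNA peaks, as low as -2.75 with 1 replicate left out, up to 6.56), the upper-quarter share (-5.30 to 2.08 with 1 replicate left out), close neighbours (-2.70 in the conservative list, -11.1 to -4.07 with 1 replicate left out, of which the first passed, -2.05 in the peaks above the median, -0.0523 with the missing peaks put back) and G+C above the flanks (-0.0494 to 1.78 with 1 replicate left out, 8.77 and called in the conservative list). Of the classes, coding exon lost its call with 1 replicate left out (-3.43 to -1.96), in the peaks above the median (-1.30) and without tRNA peaks (-5.92), noncoding exon without replicate 2 (7.61, up to 13.7 without replicate 1) and without tRNA peaks (3.39). The 5′ UTR changed sign to 0.198 in the conservative list, 0.538 in the peaks above the median and 0.858 without replicate 2 (-0.144 without replicate 1). Intergenic changed to -1.50 in the conservative list, -2.74 without replicate 2 (3.05 without replicate 1), -2.83 in the peaks above the median and -1.89 with 1 peak per 2000 bp. The 3′ UTR passed without replicate 1 (-4.40; -0.704 without replicate 2) and intron with noncoding exons placed first (-7.34). Classes called numbered 0 to 2 with 1 replicate left out, 1 in the peaks above the median and 0 without tRNA peaks.

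Of the motifs, the B box core changed sign without tRNA peaks (-1.45) and was not called without replicate 2 (5.96). With 1 replicate left out CACGTG ran from -1.35 to 3.14, GTAAACA from -0.144 to 0.286 and TTCCCGC from -0.418 to 0.885. Signs also changed for GTAAACA (-0.361) and TTCTAGAA (0.0393) without tRNA peaks, for GGGCGG (0.803) in the conservative list, and for TTTTTTTT, at 0.220 in the peaks above the median, 3.34 with the wider summit window and 0.102 with 1 peak per 2000 bp. Motifs called numbered 1 to 2 with 1 replicate left out, 1 without tRNA peaks and 5 with the wider summit window, where GATAA (7.98), GGGCGG (-5.67) and CTGCGTC (-6.02) joined. The words called numbered 4 in the conservative list, 0 to 3 with 1 replicate left out, 0 in the peaks above the median, 0 without tRNA peaks, 6 with the wider summit window and 0 with the missing peaks put back.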
